A study of Mus musculus with 8 samples.

Results

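The 10 genes described here restrain cell division or hold lymphocytes in a resting state: Btg1, Btg2, Btg3, Tob1, Tob2, Pdcd4, Foxo1, Foxo3, Klf2 and Slfn2. They were chosen by symbol, and all 10 were found among the 23234 gene rows of the table; 9 of them reached the level needed for a test, at which 10610 genes were tested. The samples were germinal centre B cells of mouse spleen on a C57BL/6 background, sorted into light zone (LZ) and dark zone (DZ) cells. Donor naive B cells were moved into wild-type CD45.1/45.2 recipients, which received tamoxifen (3 mg on 3 days) to activate ERT2cre and were then immunized with NP-CGG in alum. On day 10, NP-binding donor cells that were GL7+ and CD38- were collected from the pooled spleens of 5 recipients, the LZ cells as CD86 high and CXCR4 low and the DZ cells as CD86 low and CXCR4 high.

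The single-deficient cells (sKO) were Bach2(+/+) with Prdm1(f/f), and the double-deficient cells (dKO) were Bach2(f/f) with Prdm1(f/f). Both carried ERT2cre(KI/+) and the NP-binding receptor B1-8hi(KI/+), so the plasma cell factor gene Prdm1 was floxed in every library, controls included. Genotype and zone gave 4 groups of 2 RNA libraries, each from about 30000 cells. The labels do not say that the 2 came from separate pools of mice, so every p-value measures only the spread between these libraries.

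BTG and TOB proteins form a small family that brings the CCR4-NOT deadenylase to messenger RNAs, which shortens their poly(A) tails, and mouse T cells need Btg1 and Btg2 to stay quiescent. PDCD4 binds the RNA helicase eIF4A and holds back translation initiation until S6 kinase marks it for destruction. FOXO factors are kept out of the nucleus by AKT, drive genes of cell cycle exit and stress resistance, and in mouse germinal centres FOXO1 is needed for the dark zone programme. KLF2, a zinc finger factor under FOXO1 control in T cells, keeps lymphocytes resting and circulating, and SLFN2 is a Schlafen protein without which mouse T cells lose quiescence. The germinal centre is a place of rapid division, and whether these genes restrain it there was not tested.

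Levels are FPKM, sequenced fragments corrected for transcript length and library size, which can be compared between genes. Differences are given with their SE as log2(FPKM + 1), where genes near 1 FPKM show less than their true fold, and were tested with limma over all 10610 genes. A gene is said to have risen or fallen only where its Benjamini-Hochberg adjusted p was under 0.05. FPKM summed to 502214 to 540885 per library, and 10192 to 10250 genes reached 1 FPKM. Absolute depth is unknown from FPKM. Of 12 germinal centre and B cell markers, all were above 1 FPKM, with Bcl6 at 114 to 130 FPKM. Bach2 was at 49.8 to 64.5 FPKM in LZ and 74.6 to 96.2 in DZ libraries and was higher in dKO in both zones; a gene-level value also counts exons left in place, so it does not check the deletion. Less RNA per cell and fewer cells holding a transcript cannot be told apart in these bulk samples.

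Markers of other cells were as follows. Of 10 T cell markers, 8 were under 1 FPKM in every library, Cd3e was at 0 to 0.0771 FPKM, and Lck made up nearly all of the list's sum of 33.9 to 66.6 FPKM. The 11 myeloid markers summed in LZ to 8.08 and 53.0 FPKM for sKO and 22.7 and 150.1 for dKO, and in DZ to 1.36 to 3.38. The 9 markers of naive or recirculating B cells, a list led by Fcer2a, summed to 380 and 399 FPKM in sKO LZ against 218.5 and 224 in dKO LZ, and to 153 and 144 in sKO DZ against 92.5 and 88.6 in dKO DZ. The 8 stromal markers summed in LZ to 101.5 and 119.6 FPKM in sKO against 62.7 and 65.5 in dKO, and in DZ to 50.05 and 49.0 against 32.9 and 33.0. Most of that sum was Cr2, a complement receptor gene that B cells also express, and Pecam1, the 2 tested genes of the list, both called lower in dKO in both zones. The 8 light zone markers summed in LZ to 987 and 1032 FPKM in sKO against 736 and 745 in dKO. In DZ they summed to 321 and 294 against 201 and 208. Of the 8, 4 in LZ and 3 in DZ were called lower in dKO, against 12.7% and 5.23% of all genes. The naive B cell, stromal and light zone lists were thus lower in dKO in both zones, without overlap. The naive B cell and light zone lists are not separate, since Fcer2a is on both. Fcer2a was at 270 and 292 FPKM in sKO LZ against 140 and 144 in dKO LZ. In DZ it was at 68.8 and 70.9 against 28.0 and 29.2. The myeloid sums overlapped between genotypes in LZ and were higher in every LZ library than in any DZ library. The part of these lists in the values below was not tested. Of the recirculation genes, Ccr7 was at 0.0367 to 0.483 FPKM and S1pr1 at 0.804 to 2.88 FPKM.

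Promoter sequences are shown for the 4 genes that fell in dKO cells, since they are members that moved in the same direction. They are the 250 bases before the RefSeq transcript start on GRCm38.p6, 5' to 3' on the strand of the gene; the authors' build was mm9, so no coordinate is carried between builds. Capitals mark matches, on either strand, to 5 motifs: TGTTTAC (bound by forkhead factors), TGANTCA (the core shared by AP-1 and BACH sites), TGACGTCA (the cyclic AMP response element), CCAAT and TATAAA. All 10 members had an entry in the promoter table, in 12 windows because Btg3 and Pdcd4 have a pair each.
Btg1, chr10:96616751-96617000, plus strand: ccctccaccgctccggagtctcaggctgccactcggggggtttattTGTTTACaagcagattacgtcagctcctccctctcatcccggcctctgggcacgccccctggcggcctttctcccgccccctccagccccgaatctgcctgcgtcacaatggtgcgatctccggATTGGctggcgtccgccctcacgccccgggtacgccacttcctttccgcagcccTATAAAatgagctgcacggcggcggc
Btg2, chr1:134079156-134079405, minus strand: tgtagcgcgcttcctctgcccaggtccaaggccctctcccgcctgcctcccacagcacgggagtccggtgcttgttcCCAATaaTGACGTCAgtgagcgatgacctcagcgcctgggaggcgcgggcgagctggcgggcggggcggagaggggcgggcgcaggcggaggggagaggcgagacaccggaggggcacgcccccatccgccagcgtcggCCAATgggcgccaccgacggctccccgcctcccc
Pdcd4, upstream start, chr19:53891981-53892230, plus strand: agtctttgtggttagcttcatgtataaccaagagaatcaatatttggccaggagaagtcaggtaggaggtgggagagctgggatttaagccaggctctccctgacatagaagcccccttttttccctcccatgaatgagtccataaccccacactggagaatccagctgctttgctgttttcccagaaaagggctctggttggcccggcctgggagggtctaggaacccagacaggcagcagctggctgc
Pdcd4, downstream start, chr19:53903101-53903350, plus strand: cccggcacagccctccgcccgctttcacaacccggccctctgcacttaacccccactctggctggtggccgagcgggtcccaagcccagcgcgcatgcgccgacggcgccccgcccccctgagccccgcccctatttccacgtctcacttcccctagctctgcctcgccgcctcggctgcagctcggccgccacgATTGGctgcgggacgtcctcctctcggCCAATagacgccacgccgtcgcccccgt
Slfn2, chr11:83064862-83065111, plus strand: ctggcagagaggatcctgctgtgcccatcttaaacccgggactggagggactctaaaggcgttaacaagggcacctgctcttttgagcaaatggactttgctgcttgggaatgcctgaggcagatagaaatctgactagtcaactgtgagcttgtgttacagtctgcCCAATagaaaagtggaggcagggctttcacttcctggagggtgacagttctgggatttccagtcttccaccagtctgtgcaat

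CCAAT was in 8 of the 12 member windows and in 33.8% of all 32851 windows of this length. The forkhead motif was in the Btg1 window, 204 bases before the start, and in 3.17% of all windows. The cyclic AMP motif was in the Btg2 window, 166 bases before the start, and in 1.55% of all windows. TATAAA was in the Btg1 and Tob1 windows and in 12.4% of all windows. TGANTCA was in 0 of the 12 windows and in 6.75% of all windows. A match is only a run of letters, and its absence says nothing on binding elsewhere. The 4 genes that fell had no motif other than CCAAT in common among those searched, and the upstream Pdcd4 window held none of the 5. Matches to CCAAT were also in the windows of Foxo1 and Tob1, not called between genotypes, and of Btg3, not tested.

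Both genotypes were first compared in LZ cells, which asks what loss of Bach2 on top of Prdm1 changed in these regulators. Btg1, Btg2 and Pdcd4 fell in dKO LZ cells and 0 members rose. Of all genes tested 31.1% were called in LZ, 12.7% lower and 18.4% higher, so that 3 of 9 members called is close to the share of all genes called, while 3 of 9 lower is above the share called lower. With upper quartile scaling 1855 genes were called lower and 1549 higher, against 1351 and 1948 as reported, and 4 members were then called, all lower. The 9 tested members had a median difference of -0.20, against 0.022 over all genes tested.

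**Figure D1:**
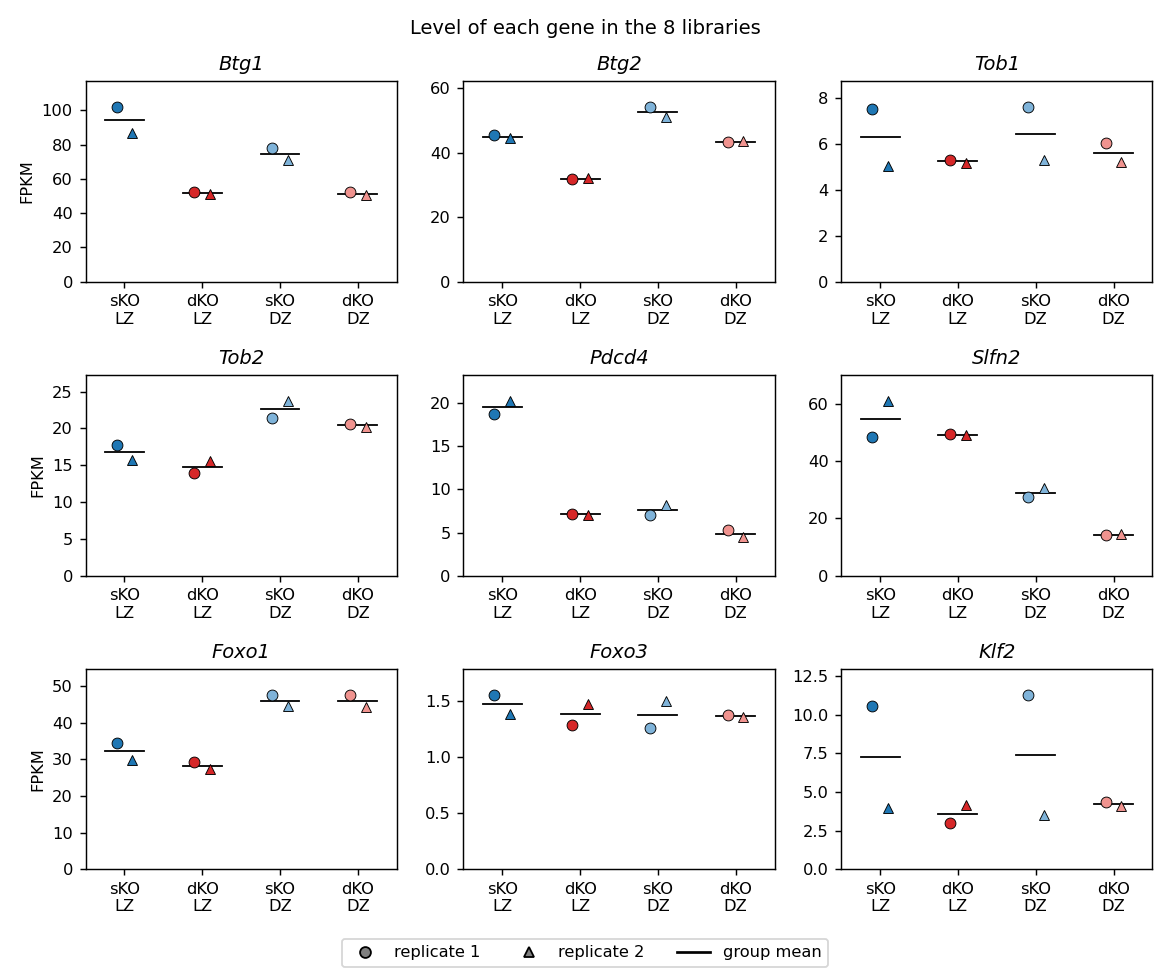
FPKM (linear axis from 0) of the 9 tested genes in each library; circles are replicate 1, triangles replicate 2 and lines the group means, blue for sKO and red for dKO, darker in LZ and paler in DZ. The blue points of Btg1, Btg2 and Pdcd4 lie above the red ones within each zone, and Klf2 stands out in replicate 1 of both sKO groups, at 10.5 and 11.3 FPKM.

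Btg1 is the most abundant of the members and a gene often mutated in human B cell lymphomas. Its FPKM in LZ was 102 and 86.9 in sKO, against 52.1 and 51.4 in dKO. The groups did not overlap, and the mean was 1.82-fold lower in dKO (-0.85 ± 0.080, adjusted p = 0.00133, limma). In DZ it was at 77.7 and 70.9 in sKO and 52.1 and 50.7 in dKO, again without overlap and 1.45-fold lower (-0.52 ± 0.080, adjusted p = 0.0137, limma). The dKO level was thus nearly the same in both zones, 51.7 ± 0.504 in LZ and 51.4 ± 1.04 in DZ (SD, n = 2), with an LZ minus DZ difference of 0.0089 (95% interval -0.18 to 0.20). Btg1 has a pair of coding copies on chromosome X in RefSeq, Btg1b and Btg1c, whose rows were at 0 and at most 0.059 FPKM.

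Btg2, induced by p53 and antigen receptor signals in lymphocytes, was steadier between replicates. It was at 45.4 and 44.7 FPKM in sKO LZ and 31.8 and 32.2 in dKO LZ, 1.41-fold lower without overlap (-0.48 ± 0.041, adjusted p = 0.00107, limma). In DZ it was at 54.2 and 51.1 in sKO and 43.2 and 43.6 in dKO, 1.21-fold lower without overlap (-0.27 ± 0.041, adjusted p = 0.0128, limma). Btg1 and Btg2 thus had the same direction in both zones.

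The other BTG and TOB members gave no call between genotypes. Tob1 was at 7.53 and 5.06 FPKM in sKO LZ and 5.31 and 5.19 in dKO LZ, and at 7.61 and 5.32 in sKO DZ and 6.05 and 5.21 in dKO DZ. Both high values were in replicate 1 of sKO, and the groups overlapped. Its difference was -0.20 in LZ (95% interval -0.68 to 0.28) and -0.16 in DZ (-0.64 to 0.32). Without replicate 1 of the group concerned these became 0.045 and 0.068, so the direction turned.

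Tob2, the more abundant TOB gene, was at 17.7 and 15.7 FPKM in sKO LZ and 13.9 and 15.6 in dKO LZ, and at 21.5 and 23.7 in sKO DZ and 20.6 and 20.2 in dKO DZ. The groups did not overlap in either zone, though they nearly touched in LZ, and neither difference passed (-0.17 and -0.14, adjusted p = 0.166 and 0.335, limma). Over both zones together it was -0.15 ± 0.058 (adjusted p = 0.0821, limma); it passed after upper quartile scaling (0.0351) or quantile normalization (0.0476). In that mean of both zones 4 of 9 members fell, Btg1, Btg2, Pdcd4 and Slfn2, against 37.2% of all genes called, 15.5% lower and 21.7% higher. Upper quartile scaling turned that split, to 2101 lower and 1852 higher from 1641 and 2301. The mean of both zones counts LZ and DZ libraries as separate, and the labels do not say whether they shared mice.

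Btg3 was listed at 0.000701 to 0.00114 FPKM in all 8 libraries and was not tested. Only 13 of the 23234 genes lay above 0 and below 0.005 FPKM in every library. Such a value can be a failed estimate, so nothing is said of its expression.

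Pdcd4 had the largest fall among the members in LZ. Its FPKM in LZ was 18.8 and 20.2 in sKO, against 7.18 and 7.08 in dKO, 2.74-fold lower without overlap (-1.33 ± 0.097, adjusted p = 0.000887, limma). In DZ it was at 7.001 and 8.24 in sKO and 5.26 and 4.46 in dKO, 1.57-fold lower without overlap (-0.56 ± 0.097, adjusted p = 0.0187, limma). The dKO LZ level was within the range of the sKO DZ libraries. The call in DZ was lost when only the DZ libraries were fitted (0.0672).

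Slfn2 was called between genotypes in DZ and not in LZ; the test of that difference is given below. It was at 48.4 and 61.0 FPKM in sKO LZ and 49.4 and 49.1 in dKO LZ, groups that overlapped (-0.14, 95% interval -0.39 to 0.12). In DZ it was at 27.5 and 30.4 in sKO and 14.1 and 14.5 in dKO, 2.03-fold lower without overlap (-0.97 ± 0.11, adjusted p = 0.00584, limma). The LZ difference rested on the sKO libraries: it was -0.30 without sKO LZ replicate 1 (adjusted p = 0.0292, limma) and 0.025 without replicate 2. Schlafen genes lie in a cluster of similar genes that can share reads, so the level of each is uncertain.

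In DZ cells as a whole, 11.9% of genes tested were called between genotypes, 5.23% lower and 6.63% higher. Btg1, Btg2, Pdcd4 and Slfn2 fell, 4 of 9 members, and 0 rose, with a median of -0.27 against 0.014 over all genes. In 5 of 9 members the dKO DZ libraries lay below the sKO DZ libraries, as they did in 26.3% of all genes. In LZ it was also 5 of 9, against 29.3% of all genes. These 4 DZ calls rest on few libraries: 0 were left without dKO DZ replicate 1, 0 without dKO DZ replicate 2 and 2 without sKO DZ replicate 1, when the count over all genes fell from 1258 to as few as 105. The size of each difference changed little, Btg1 from -0.59 to -0.46, Btg2 from -0.31 to -0.23, Pdcd4 from -0.66 to -0.45 and Slfn2 from -1.04 to -0.90 over all alternatives.

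**Figure D2:**
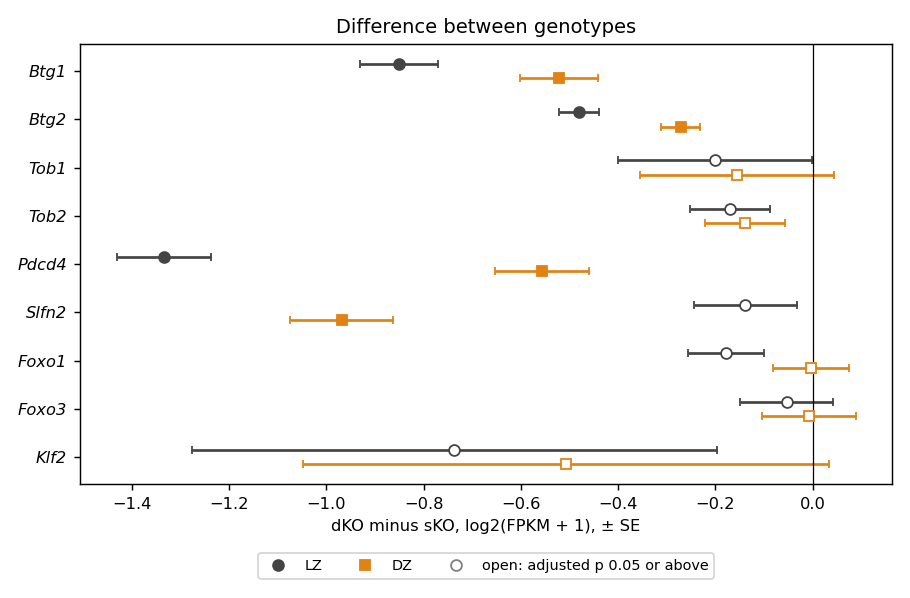
Difference dKO minus sKO on the log2(FPKM + 1) scale with its SE for each gene, circles for LZ and squares for DZ; filled symbols passed an adjusted p of 0.05. All 18 symbols lie below 0; Pdcd4 is lowest in LZ (-1.33) and Slfn2 in DZ (-0.97).

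Whether the genotype difference itself differed between zones was tested as an interaction. 0 members passed, and of all genes 3, or 0.0283%, did. The difference between zones was -0.78 ± 0.14 for Pdcd4 (unadjusted p = 0.00101, adjusted p = 0.291, limma) and 0.83 ± 0.15 for Slfn2 (unadjusted p = 0.00112, adjusted p = 0.291, limma). Btg1 and Btg2 were at -0.33 and -0.21 (adjusted p = 0.383 and 0.349, limma). These 4 members had an unadjusted p under 0.05, as did 11.6% of all genes, and no difference between zones is called for any member.

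Foxo1 was at 34.4 and 29.9 FPKM in sKO LZ and 29.1 and 27.3 in dKO LZ, and at 47.6 and 44.4 in sKO DZ and 47.4 and 44.3 in dKO DZ. In DZ the genotypes overlapped and the difference was -0.0039 (95% interval -0.19 to 0.18). In LZ the dKO libraries lay below the sKO libraries and the difference did not pass (-0.18 ± 0.078, adjusted p = 0.131, limma). It did pass with upper quartile scaling (0.0467), with the replicate number as a block (0.0379) and without sKO LZ replicate 2 (0.0483). Foxo3, a FOXO factor at a much lower level, was at 1.26 to 1.56 FPKM over the 8 libraries with overlap in every comparison. Its differences between genotypes were -0.054 in LZ (95% interval -0.28 to 0.18) and -0.0079 in DZ (-0.24 to 0.22), on a scale that understates changes at this level. Of their relatives not among the members, Foxo4 was at 3.04 to 6.07 FPKM and fell in neither zone (-0.31 and -0.16, adjusted p = 0.099 and 0.455, limma), and Foxo6 was at no more than 0.356 FPKM.

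Klf2 was split by replicate rather than by group. It was at 10.5 and 3.94 FPKM in sKO LZ and 3.00 and 4.13 in dKO LZ, and at 11.3 and 3.49 in sKO DZ and 4.38 and 4.07 in dKO DZ. Replicate 1 exceeded replicate 2 by 2.67-fold in sKO LZ and 3.23-fold in sKO DZ, and the other 6 libraries lay between 3.00 and 4.38. Between replicates 1 the dKO minus sKO difference was -1.53 in LZ and -1.19 in DZ, and between replicates 2 it was 0.055 and 0.17. The difference over all libraries was -0.74 ± 0.54 in LZ and -0.51 ± 0.54 in DZ (adjusted p = 0.346 and 0.605, limma), and without both sKO replicate 1 libraries it was -0.13 and 0.22. No difference between genotypes in Klf2 can be read from these libraries.

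The 3 genes nearest to Klf2 in profile shared this split, which follows from how they were chosen and is no separate support for it. Nearness was the root mean square difference of log2(FPKM + 1), each profile less its own mean, over the 8 libraries and among 7177 genes with a mean of at least 5 FPKM. Zfp36, which encodes an mRNA decay factor, was nearest (0.15) and was at 218 and 211 FPKM in sKO replicate 1 of LZ and DZ and at 94.6 to 107 in the other 6 libraries. Ppp1r15a, a stress-induced phosphatase subunit gene, was at 51.2 and 47.7 against 15.2 to 20.0, and Phlda1 at 8.63 and 8.86 against 3.43 to 4.79. In all, 32 of 10610 genes were higher in replicate 1 than in replicate 2 of sKO by at least 1 on the log2(FPKM + 1) scale in both zones, Klf2 the only member, and 16 were lower by as much. In dKO the same counts were 7 and 11. The naive and recirculating B cell markers, Klf2 among them, summed to 380 FPKM in replicate 1 against 399 in replicate 2 of sKO LZ and to 153 against 144 in sKO DZ; their part in the split was not tested.

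**Figure D3:**
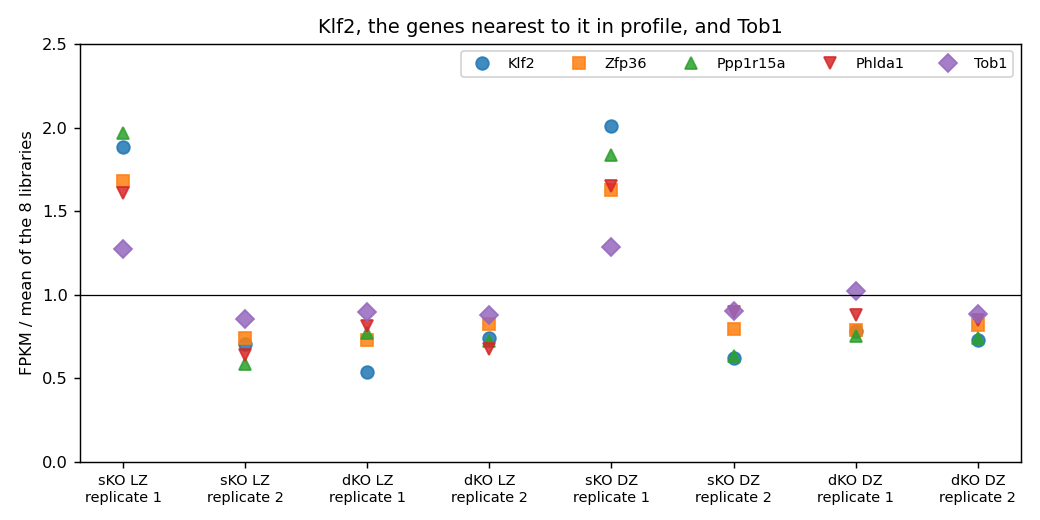
FPKM of each gene divided by its mean over the 8 libraries (linear axis) for Klf2, the 3 genes nearest to it and Tob1. In sKO LZ replicate 1 and sKO DZ replicate 1 all 5 genes lie above 1, and in the other 6 libraries they lie near or below 1. The 3 nearest genes were chosen for a profile like that of Klf2.

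The zones were then compared within each genotype, which shows how these genes stand in LZ cells against DZ cells. The sort markers followed their gates, Cd86 at 90.9 and 106 FPKM in sKO LZ against 34.8 and 38.4 in sKO DZ, and Cxcr4 at 78.3 and 73.5 against 132 and 137. In sKO 6 of 9 members were called, Pdcd4, Slfn2 and Btg1 higher in LZ and Foxo1, Tob2 and Btg2 lower. Of all genes 31.2% were called, 15.2% higher and 16.1% lower in LZ.

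In sKO cells Pdcd4 was 2.56-fold higher in LZ (1.25 ± 0.097, adjusted p = 0.000426, limma) and Slfn2 1.89-fold higher (0.89 ± 0.11, adjusted p = 0.00187, limma). Btg1 was 1.27-fold higher (0.34 ± 0.080, adjusted p = 0.022, limma), a call lost without sKO LZ replicate 1 (0.0507), without sKO DZ replicate 2 (0.105) and when only the sKO libraries were fitted (0.0873). Foxo1 was 1.43-fold higher in DZ (-0.51 ± 0.078, adjusted p = 0.00479, limma), Tob2 1.35-fold (-0.41 ± 0.082) and Btg2 1.17-fold (-0.22 ± 0.041). The Tob2 call was lost without sKO LZ replicate 2 (0.0563) or sKO DZ replicate 2 (0.0655), and the Btg2 call when only the sKO libraries were fitted (0.0636). Btg1 and Btg2 thus differed in opposite directions between the zones of sKO cells. Tob1, Foxo3 and Klf2 had overlapping zones and differences of -0.036, 0.055 and 0.025.

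In dKO cells 5 of 9 members were called between zones, against 34.1% of all genes, 18.0% higher and 16.1% lower in LZ. Slfn2 was 3.44-fold higher in LZ (1.72 ± 0.11, adjusted p = 0.000167, limma) and Pdcd4 1.47-fold higher (0.48 ± 0.097, adjusted p = 0.0114, limma). Foxo1, Tob2 and Btg2 were lower in LZ by 0.68 ± 0.078, 0.44 ± 0.082 and 0.43 ± 0.041, written here as sizes of the LZ minus DZ difference (adjusted p = 0.00137, 0.00803 and 0.000693, limma). The Pdcd4 call was lost without dKO LZ replicate 1 (0.0561), dKO LZ replicate 2 (0.0521) or dKO DZ replicate 2 (0.0631). The difference of the zone contrasts between genotypes is the interaction given above, which no member passed.

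**Figure D4:**
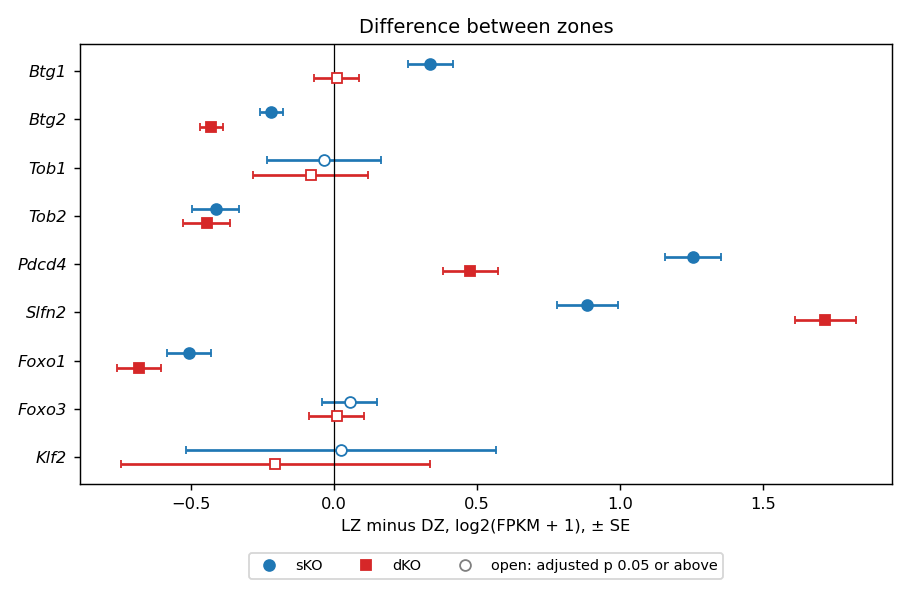
Difference LZ minus DZ on the log2(FPKM + 1) scale with its SE, circles for sKO and squares for dKO; filled symbols passed an adjusted p of 0.05. Pdcd4 and Slfn2 lie to the right of 0 in both genotypes, and Btg2, Tob2 and Foxo1 to the left.

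Ordered by level, Btg1 was highest in all 4 groups and Foxo3 was the lowest of the tested members. In sKO LZ the order after Btg1 was Slfn2 (54.7 ± 8.91 FPKM, SD, n = 2), Btg2 (45.1 ± 0.476), Foxo1 (32.2 ± 3.16), Pdcd4 (19.5 ± 1.04) and Tob2 (16.7 ± 1.40), neighbours whose libraries did not overlap. In sKO DZ it was Btg2 (52.7 ± 2.14), Foxo1 (46.0 ± 2.22), Slfn2 (29.0 ± 2.06) and Tob2 (22.6 ± 1.59), followed by Pdcd4, Klf2 and Tob1, whose libraries overlapped. In dKO DZ Foxo1 (45.9 ± 2.22) stood above Btg2 (43.4 ± 0.265), and Slfn2 had moved below Tob2 (14.3 ± 0.347 against 20.4 ± 0.237).

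The genes nearest to the other members were as follows, by the same measure of nearness. Nearest to Btg1 were Cd200, Dusp6 and Tk2 (0.065 to 0.11), and nearest to Btg2 were Hectd3, Rcsd1 and the cyclin gene Ccng2 (0.030 to 0.035). Pdcd4 was nearest to Mndal, Cd38 and Lrrk2 (0.15 to 0.19), and Slfn2 to Havcr1, Casp4 and Ncf1 (0.13 to 0.19). Foxo1 was nearest to Wbp2, Cpm and Trib2 (0.050 to 0.056) and Tob2 to Rfx1 and Dgkz (0.038 and 0.050). Tob1 was nearest to Smpd1, Pmaip1 and Spty2d1 (0.10 to 0.11). Foxo3 varied so little (0.058 about its own mean) that its nearest genes, Chmp2a, Fastk and Tbl2, are those that also varied little. Cd38 protein was gated against in the sort.

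Genes of the machinery that BTG and TOB proteins recruit were called in both directions. Of 17 genes of the CCR4-NOT complex, the PAN deadenylases and poly(A) binding, 1 rose and 2 fell in LZ of dKO, and 1 rose in DZ, where 31.1% and 11.9% of all genes were called. In the mean of both zones 4 rose and 3 fell, against 37.2% of all genes called. The subunit gene Rqcd1 (Cnot9) went from 29.2 and 27.4 FPKM to 34.4 and 35.6 in LZ (0.30 ± 0.051) and from 30.4 and 29.8 to 36.5 and 34.3 in DZ (0.23 ± 0.051), where the call was lost when any DZ library or any dKO library was left out. The deadenylase gene Cnot6l and Pan3 fell in LZ (-0.20 ± 0.048 and -0.31 ± 0.056, adjusted p = 0.0226 and 0.00903, limma), and neither call was left without dKO LZ replicate 1. The list median was 0.091 in LZ and 0.029 in DZ, against 0.022 and 0.014 over all genes.

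The helicase gene Eif4a1, whose product PDCD4 binds, and some other genes of cap-dependent initiation rose in dKO cells. Of 12 tested genes of eIF4A, its partners and the control of PDCD4, 5 rose in LZ of dKO with 0 lower, and 3 rose in DZ (0 without dKO DZ replicate 1 or without dKO DZ replicate 2). In LZ 18.4% of all genes were called higher and in DZ 6.63%. Eif4a1 went from 389 and 402 FPKM to 584 and 567 in LZ (0.54 ± 0.041, adjusted p = 0.000918, limma) and from 301 and 315 to 387 and 392 in DZ (0.34 ± 0.041, adjusted p = 0.00795, limma). The scaffold gene Eif4g1 rose by 0.40 ± 0.042 and 0.32 ± 0.042 and the cap-binding gene Eif4e by 0.41 ± 0.050 and 0.21 ± 0.050, in LZ and DZ. Eif4h, a cofactor of the helicase, rose in LZ (0.27 ± 0.051). Eif4a2, which also encodes an eIF4A helicase, did not rise. In LZ its dKO libraries lay below its sKO libraries, and the difference was not called (-0.10 ± 0.042, adjusted p = 0.112, limma). In DZ the Eif4a2 difference was -0.039 ± 0.042 (adjusted p = 0.613, limma). The list median, 0.046 in LZ and 0.084 in DZ, was near that of all genes.

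Counts for genes known as FOXO targets were near those of all genes in LZ. Of 25 tested, 3 rose and 6 fell in LZ of dKO, and 3 rose and 2 fell in DZ, against 31.1% and 11.9% of all genes called. With 1 library left out it was 3 to 5 higher and 3 to 5 lower in LZ, and 1 to 3 higher and 0 to 2 lower in DZ. The pro-apoptotic gene Bcl2l11 rose in both zones (0.99 ± 0.064 and 0.91 ± 0.064), as did the catalase gene Cat (0.37 ± 0.047 and 0.46 ± 0.047). The cell cycle inhibitor gene Cdkn1b fell in both (-0.93 ± 0.10 and -0.74 ± 0.10), as did Ccng2 (-0.50 ± 0.039 and -0.25 ± 0.039). Of 22 genes of PI3K and AKT signalling upstream of FOXO, 3 rose and 2 fell in LZ, and 1 of each in DZ. Between the zones of sKO cells 10 of the 25 FOXO targets were lower and 3 higher in LZ, against 16.1% and 15.2% of all genes. Akt1 was at 81.3 and 73.7 FPKM in sKO LZ against 140 and 147 in sKO DZ (-0.88 ± 0.055).

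Of 8 tested genes known as KLF2 targets, 0 rose and 5 fell in LZ of dKO and 4 fell in DZ (1 without dKO DZ replicate 1 or without dKO DZ replicate 2). Of all genes 12.7% were called lower in LZ and 5.23% in DZ. Those that fell in both zones were the low-affinity IgE receptor gene Fcer2a, Cxcr3, the complement receptor gene Cr2 and the integrin gene Itgb7. S1pr4 was called in LZ and not in DZ. Cxcr3 was low throughout, at 2.44 and 2.91 FPKM in sKO LZ and 0.0615 and 0.192 in dKO LZ. In DZ it was at 2.37 and 1.72 in sKO and 0.498 and 0.278 in dKO. The list names targets without the direction in which KLF2 moves each. The part of Klf2 in the falls on this list was not tested. Fcer2a is also on the lists of naive B cell and light zone markers above, and Cr2 on the stromal list and the main part of its sum. S1pr1, the defining KLF2 target in T cells, was at 0.804 to 2.88 FPKM and was not called (-0.10 and -0.27, adjusted p = 0.721 and 0.401, limma). Of 7 other KLF genes tested 1 fell in each zone, Klf13 (-0.42 ± 0.063 and -0.26 ± 0.063), and the DZ call was lost whichever library was left out.

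The other Schlafen genes were below Slfn2 in every library. Of 5 tested, Slfn3 had the highest mean, at 6.54 to 9.44 FPKM, and came nearest to Slfn2 in dKO DZ, at 8.47 and 8.69 against 14.1 and 14.5. In dKO LZ cells Slfn8 and the pseudogene Slfn10-ps fell (-0.50 ± 0.091 and -0.34 ± 0.072) and Slfn4 rose (0.50 ± 0.14, adjusted p = 0.04, limma), and each of these calls was lost in some fits with 1 library left out, which gave 0 to 1 higher and 0 to 2 lower. Slfn4 was at 2.01 and 2.06 FPKM in sKO LZ and 2.77 and 3.91 in dKO LZ. Its highest value was in dKO LZ replicate 2, the library with the largest myeloid marker sum (150.1 FPKM). The part of myeloid cells in it was not tested. In DZ the smallest adjusted p among these other Schlafen genes was 0.0951, for Slfn3 (limma). Slfn10-ps was lower in LZ than in DZ of sKO cells (-0.77 ± 0.072), the opposite of Slfn2. These genes are alike enough that reads may be split among them.

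Other genes listed as inhibitors of the cell cycle were called in both directions in LZ, and proliferation genes only higher. Of 33 tested genes of cell cycle inhibition, 4 rose and 9 fell in LZ of dKO, where 18.4% of all genes were called higher and 12.7% lower. With 1 library left out it was 1 to 6 higher and 6 to 10 lower. In DZ 0 rose and 4 fell, namely Cdkn1b, Mxd4, Nfatc1 (-0.28 ± 0.044) and Fam65b (-0.22 ± 0.045), of which 0 were left without dKO DZ replicate 1. Of all genes in DZ, 6.63% were called higher and 5.23% lower. Whether each gene of this list inhibits division in these cells was not tested. Mxd4, which competes with MYC for MAX, went from 38.2 and 42.8 FPKM to 17.6 and 17.7 in LZ. In DZ it went from 27.7 and 32.9 to 19.3 and 19.4. Of 27 proliferation genes, 19 rose and 0 fell in LZ (15 to 22 with 1 library left out), with a median of 0.39. In DZ 13 rose and 0 fell, which became 0 without dKO DZ replicate 1, with a median of 0.23. Among them were the replication gene Mcm6 (0.48 ± 0.041 and 0.31 ± 0.041) and the G1 kinase gene Cdk6 (0.98 ± 0.099 and 0.86 ± 0.099). Mki67, a marker of cycling cells, was at 143 and 151 FPKM in sKO LZ and 178 and 184 in dKO LZ (0.30 ± 0.052), and at 215 and 218 in sKO DZ and 224 and 242 in dKO DZ (0.10 ± 0.052, adjusted p = 0.251, limma). Between the zones of sKO cells 21 of the 27 were lower in LZ and 1, Ccnd2, was higher, against 16.1% and 15.2% of all genes. The 6 members called between those zones split evenly, Pdcd4, Slfn2 and Btg1 higher in LZ and Foxo1, Tob2 and Btg2 higher in DZ.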

How the data were processed

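RNA-seq of 8 libraries in 4 groups of 2 was analysed from 1 table of FPKM values that the authors deposited, with 23234 gene rows and 0 columns unmatched to a sample; 1 row of library codes was left out. TopHat2 2.0.8, Cufflinks 2.1.1 and mm9 are named in the submitters' processing notes, without roles or options, and the annotation is not given in the sources used here. Counts and depth are unknown, so no count test was run, and 2 libraries a group limit the precision.

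Genes reaching 1 FPKM in 2 or more libraries were tested on the log2(FPKM + 1) scale with limma 3.58.1 in R 4.3.3, on 4 group means with an intensity trend (4 residual and 2.46 prior degrees of freedom). P-values were 2-sided and adjusted by Benjamini-Hochberg over all genes, separately in 6 contrasts; the fit was tested on simulated data. The members, gene lists and tests were chosen with earlier results of these data known. From each list the 3 genes with the smallest p past the threshold in the LZ or DZ genotype contrast or the sKO zone contrast could be named, with all members, the targeted genes and the 3 nearest profiles of each member. Foxo4, Foxo6, S1pr1, Ccr7, Mki67, Slfn3, Slfn4, Itgb7 and Fam65b, and genes given to complete a count, were named after their values were seen. Some genes that the rule selects are not reported here. Promoter sequences are from RefSeq (GRCm38.p6). Other settings tried were pseudocounts, low-value filters, scalings, variance priors, the replicate number as a block, fits of only the groups compared or without small RNA genes, and libraries left out.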

Additional observations from a re-analysis of the deposited data

How the results depend on the processing

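In all, 54 differences (9 members in 6 contrasts) were recomputed under 1110 combinations of a difference and an alternative. Of these, 1081 kept their side of the threshold, 22 lost a call, 7 gained one and 0 called differences changed sign. With the replicate block, which takes the replicate number as a term, 4 members were called in LZ and 4 in DZ, and 6 and 5 between the zones of sKO and dKO; the only changed call was Foxo1 in LZ. Replicate numbers are not said to mark shared mice, and the correlation of replicate 1 minus replicate 2 between groups was -0.11 to 0.12.

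With 1 library left out the number of members called was 3 to 4 in LZ, 0 to 4 in DZ, 4 in the mean of both zones, 4 to 6 between sKO zones, 4 to 5 between dKO zones and 0 for the interaction. The counts over all genes moved more, 1703 to 3140 in LZ (3299 with all) and 105 to 1339 in DZ (1258 with all), so the threshold itself moved with them. When only the DZ libraries were fitted 3 members were called. Scaling to equal sums (TPM) changed the split of all genes called in DZ to 934 higher and 462 lower, from 703 and 555, and between sKO zones to 1238 and 2362, from 1609 and 1703, and between dKO zones to 1353 and 2647, from 1915 and 1708. Foxo3 could not be tested with the filter at 5 FPKM, and Btg3 was below the main filter.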
